A study of Aedes aegypti with 19 samples.

Results

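The PIWI family of the mosquito Aedes aegypti is listed here as 8 genes, Piwi1 to Piwi7 and Ago3, and its members were found by their gene ID or by the PIWI symbol that the files use in place of it. Of the 8 listed genes, 7 had a row among the 19381 genes of the files, and Piwi1 (AAEL008076) was not analysed here. The files name 6 of the 7 by symbol and Ago3 by its ID, so that the IDs given below for the members named by symbol, and the name Ago3, rest on the order of the list of members (the ID of PIWI5 is also given in the study's supplementary tables), while values and positions are those of the rows so named in the files. All 7 passed the filter on low counts and were among the 13904 genes tested. The samples were ovaries of BF (blood-fed) mosquitoes, which had taken a meal of warmed sheep blood, and of SF (sugar-fed) mosquitoes of the same strain, which had not. Ovaries were taken on days 3, 10 and 20 after the blood meal, with 4 libraries of BF day 3 and 3 libraries of every other group, 19 libraries in all. Both groups were kept on sucrose, BF females could lay their eggs, and eggs still held in the ovary were removed. Each library was a pool of ovaries, so that germline cells, follicle cells and the ovary wall were measured together, and fewer cells of a type cannot be told apart from less RNA per cell.

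PIWI proteins are Argonautes that bind piRNAs, small RNAs which guide them to matching transcripts. In the animal germline this pathway holds transposons in check, and in the fruit fly the cytoplasmic PIWI proteins Aubergine and Ago3 cut sense and antisense transcripts in turn, in the ping-pong cycle. Aedes mosquitoes carry an expanded set of PIWI genes, and some of them also act in body cells, where piRNAs are made from infecting viruses. In cells of this mosquito Piwi5 and Ago3 are the ping-pong partners that make viral piRNAs, Piwi4 has been linked to antiviral defense and to piRNAs from satellite repeats, and Piwi7 is known from the early embryo.

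In the AaegL5.0 genome, PIWI2 (AAEL008098) lies on chromosome 1 at 62489534 to 62494276 on the plus strand, with 6 exons. PIWI3 (AAEL013692) lies next to it on the minus strand, at 62468527 to 62479655, also with 6 exons. The 2 genes are 9878 bases apart and point away from each other, with 1 other gene (AAEL025535) between them. PIWI7 (AAEL006287) has 4 exons on the minus strand of chromosome 1, at 121679216 to 121682727, and overlaps AAEL022397 on the opposite strand. PIWI4 (AAEL007698) lies on the plus strand of chromosome 2 at 470345031 to 470375870 with 6 exons, and Ago3 (AAEL007823) on its minus strand at 272550242 to 272574313 with 7 exons. PIWI5 (AAEL013233, 5 exons, 279943226 to 279965201) and PIWI6 (AAEL013227, 7 exons, 279908444 to 279964670) lie on the minus strand of chromosome 3 and overlap by 21445 bases. Read pairs in the introns of this overlap could not be given to either gene alone. Between 88.1% and 96.2% of the gene reads of PIWI5 and between 89.7% and 96.1% of those of PIWI6 were unique, while 100% of the exon reads of both were.

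Between 34651820 and 56274885 read pairs per library fell on genes, with the lowest total in BF day 3 replicate 2. Intron reads made up between 9.11% and 13.2% of them in the 4 BF day 3 libraries and between 3.95% and 6.15% in the other 15. The germline genes osk (1157 to 1802 RPKM) and inx4 (146 to 207 RPKM), known from the germline of the fruit fly, were abundant in every library. LT1, a trypsin of the midgut, stayed at or under 0.154 RPKM, and 15a-1, an eggshell gene of follicle cells, reached 0.448 to 5.66 RPKM in BF day 3 and at most 0.277 RPKM in the other libraries. On day 3, osk (log2 fold change -0.39, FDR p-value 0.000113) and inx4 (-0.35, FDR p-value 5.32e-05) fell in BF against SF, and their part in the day 3 results below was not tested.

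Levels between members were compared as RPKM, which divides the exon reads by exon length and library size. PIWI4 was the most abundant member in 17 of 19 libraries, at a median of 175 RPKM, which was above the median of 98.5% of all genes. Ago3 followed with a median of 93.4 RPKM, PIWI3 with 73.9, PIWI6 with 69.3 and PIWI2 with 33.8 RPKM. PIWI5 was in sixth place in all 19 libraries (median 9.58 RPKM), and PIWI7 was last in all 19 (median 0.107 RPKM, with 4 to 36 read pairs per library). The order changed in BF day 3, where PIWI3 led with a mean of 138 RPKM before PIWI4 with 131 RPKM, and the ranges of the libraries of these neighbours overlapped. In BF day 3 the ranges of PIWI6 (mean 64.4 RPKM) and PIWI2 (63.6 RPKM) also overlapped. Ago3 and PIWI3 overlapped in SF day 3, and PIWI3 and PIWI6 in BF day 10, SF day 10 and SF day 20. All other neighbours in the order stood apart in every group.

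**Figure D1:**
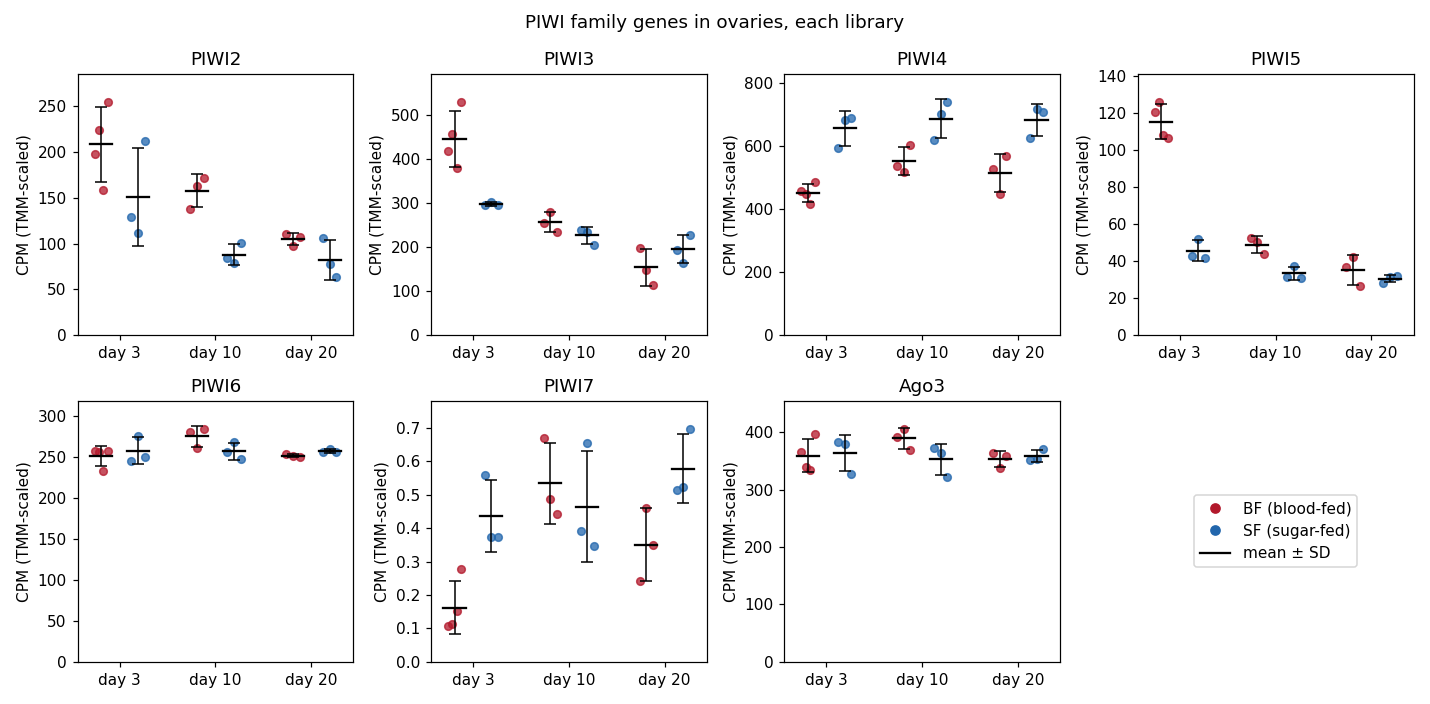
Level of each PIWI family gene in CPM after TMM scaling (vertical axis, each panel with its own scale from 0) in ovaries of BF (red) and SF (blue) mosquitoes on days 3, 10 and 20. Points are libraries and black bars are means ± SD. PIWI5 lay at 106.5 to 126 CPM in BF day 3 and between 26.7 and 52.5 CPM in the other groups, while PIWI6 stayed between 233 and 285 CPM throughout.

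The comparison of BF with SF ovaries on each day asks how these genes differed after a blood meal, about the end of egg development (day 3) and later. The study states that many BF females had already laid when the day 3 ovaries were taken. On day 3, 4 of the 7 members were DEGs (FDR p-value under 0.05), PIWI5 and PIWI3 higher and PIWI4 and PIWI7 lower. Of all tested genes, 32.3% were called higher and 32.6% lower on that day, so that a share of this size was near the background. The median log2 fold change was -0.015 over the 7 members and 0.018 over all genes, and the members ran from -1.39 to 1.34.

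PIWI5, the partner of Ago3 in viral ping-pong, had the largest rise. In BF day 3 ovaries it had 121, 126, 106.5 and 108 CPM in replicates 1 to 4, against 42.9, 52.0 and 41.9 CPM in SF day 3 ovaries (replicates 1, 2 and 4). Every BF library lay above every SF library. The difference was 2.53-fold, and the log2 fold change 1.34 ± 0.13 (SE) with an FDR p-value of 9.63e-08. On day 10 PIWI5 had 52.5, 50.3 and 43.8 CPM in BF against 31.5, 37.6 and 31.1 CPM in SF, again with no overlap. This rise was smaller, at 0.55 ± 0.13 on the log2 scale (FDR p-value 0.00952). On day 20 it had 36.7, 42.2 and 26.7 CPM in BF against 28.3, 31.3 and 32.1 CPM in SF, where the groups overlapped (log2 fold change 0.20, FDR p-value 0.302). BF replicate 4 was the lowest of the 6 libraries, and without it the day 20 value was 0.37 (FDR p-value 0.0300).

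The day 3 response of PIWI5 was larger than that of the later days by a direct test. Its blood-meal effect on day 10 was lower than on day 3 by a log2 difference of -0.79 ± 0.18 (FDR p-value 0.00282). On day 20 the difference from day 3 was -1.14 ± 0.18 (FDR p-value 0.000129). Over all genes, 36.8% were called in the first of these interactions and 38.8% in the second.

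PIWI6 shares the PIWI5 locus and is known to bind viral piRNAs in cells of this mosquito, but its level showed no such step. In BF day 3 it had 258, 257, 257 and 233 CPM, against 246, 276 and 251 CPM in SF day 3. The log2 fold change was -0.036, with a 95% interval from -0.15 to 0.075. On day 10 PIWI6 averaged 275 ± 12.6 CPM in BF and 257 ± 10.4 CPM in SF (SD, n = 3 each), with a log2 fold change of 0.099 (FDR p-value 0.230). With scaling by upper quartile it was 0.18 (FDR p-value 0.0344) and with library size alone 0.16 (FDR p-value 0.0483). On day 20 the means were 252 ± 1.93 CPM in BF and 258 ± 2.49 CPM in SF (SD, n = 3 each), a log2 fold change of -0.034 (FDR p-value 0.714).

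Ago3, which takes the sense strand piRNAs in the fruit fly ping-pong cycle, also gave intervals close to 0. It had 366, 340, 397 and 334 CPM in BF day 3, against 383, 379 and 327 CPM in SF day 3, and the groups overlapped. The log2 fold change was -0.015 on day 3 (95% interval -0.16 to 0.13), 0.14 on day 10 (-0.017 to 0.30) and -0.023 on day 20 (-0.18 to 0.14). When read pairs across exon-exon junctions were counted in place of total gene reads, the day 3 value of Ago3 was 0.20 (FDR p-value 0.0141), and with exon reads it was 0.15 (FDR p-value 0.0509). Scaling by upper quartile also turned the day 3 values of PIWI6 (0.064) and Ago3 (0.085) positive, and neither was called.

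PIWI4, the most abundant member, was lower after the blood meal on all 3 days. On day 3 it had 458, 447, 485 and 417 CPM in BF ovaries against 593, 683 and 690 CPM in SF ovaries. No library of one group reached the other. The log2 fold change was -0.54 ± 0.088 (SE, FDR p-value 3.37e-05). On day 10 the values were 538, 518 and 604 CPM in BF and 619, 701 and 739 CPM in SF, with a value of -0.31 ± 0.095 on the log2 scale (FDR p-value 0.0286). On day 20 they were 527, 448 and 568 CPM in BF and 625, 717 and 707 CPM in SF, with a value of -0.41 ± 0.095 on the log2 scale (FDR p-value 0.00588). The day 10 call was the least secure of these. It was lost without BF replicate 1 (FDR p-value 0.0872), BF replicate 2 (0.139), SF replicate 2 (0.0885) or SF replicate 4 (0.118), with scaling by upper quartile (0.0942) or library size alone (0.0645), and with junction reads (0.0513). The difference of its effect between days did not pass the test, with FDR p-values of 0.184 for day 10 against day 3 and 0.470 for day 20 against day 3.

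On day 10, PIWI2 and PIWI5 were called higher and PIWI4 lower, 3 of the 7 members, against 8.55% of all genes higher and 10.7% lower. On day 20 PIWI4 was the single member called lower and none was called higher, against 12.1% of all genes lower and 9.31% higher. These background shares depended on scaling and on single libraries. Called genes numbered 1189 higher and 1492 lower on day 10, and 1698 higher and 786 lower with upper-quartile scaling. On day 20 they were 1294 higher and 1682 lower, and 1819 higher and 927 lower with that scaling. On day 10, 2681 genes were called in all, against 1126 without BF replicate 2 and 1745 without SF replicate 2. On day 20, 2976 were called, against 1601 without BF replicate 2, 1706 without SF replicate 2 and 1917 without SF replicate 4.

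**Figure D2:**
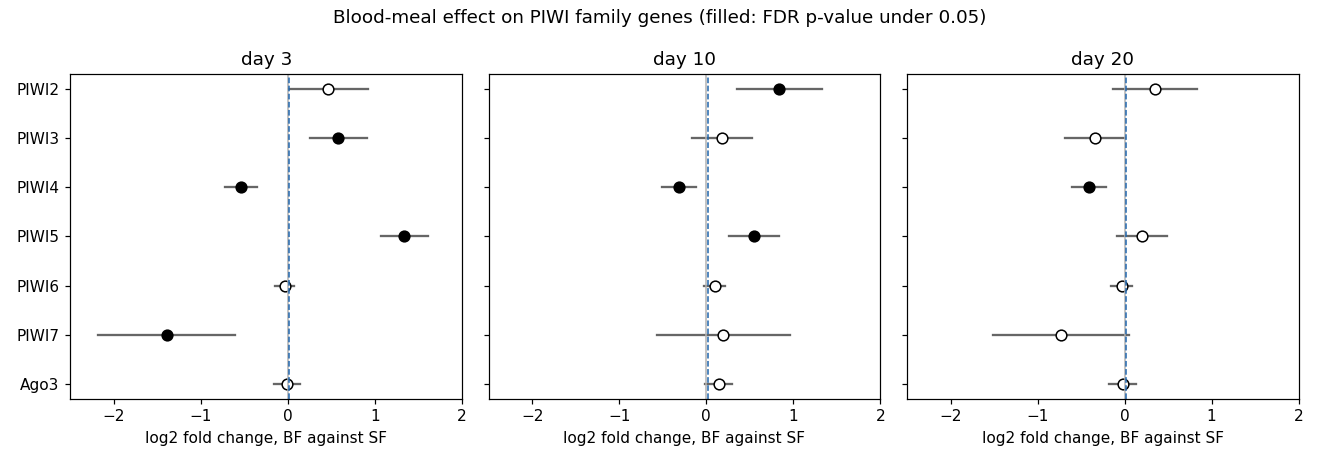
Log2 fold change of BF against SF (horizontal axis) for each member on days 3, 10 and 20, with 95% intervals derived from the edgeR F statistic. Filled points passed an FDR p-value of 0.05 and the dashed line is the median of all tested genes. PIWI4 lies below 0 on each day, at -0.54, -0.31 and -0.41, and PIWI5 lies at 1.34, 0.55 and 0.20.

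PIWI3 and PIWI2 form the divergent pair on chromosome 1. PIWI3 had 418, 456, 529 and 379 CPM in BF day 3, against 295, 302 and 296 CPM in SF day 3. The BF libraries were spread more widely and all lay above the narrow SF range. The log2 fold change was 0.58 ± 0.15 (SE, FDR p-value 0.00309). On day 10 PIWI3 averaged 257 ± 22.4 CPM in BF and 227 ± 18.4 CPM in SF (SD, n = 3 each), which did not pass the test (log2 fold change 0.18, FDR p-value 0.457). On day 20 it had 199, 149 and 114 CPM in BF against 193, 164 and 228 CPM in SF. The day 20 groups overlapped, and the log2 fold change was -0.34 (FDR p-value 0.146). Without BF replicate 1, the highest BF library, it was -0.57 (FDR p-value 0.0148). The effect on PIWI3 on day 20 was lower than on day 3 by a log2 difference of -0.92 ± 0.22 (FDR p-value 0.00347), and for day 10 against day 3 the difference was -0.40 (FDR p-value 0.171).

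PIWI2 varied most between replicates among the 6 abundant members, with a CV of up to 35.7% within a group. It had 197, 224, 254 and 158 CPM in BF day 3, against 129, 111 and 212 CPM in SF day 3. SF replicate 4 lay within the BF range, and the groups overlapped. The log2 fold change of 0.46 ± 0.21 had an FDR p-value of 0.0682. Without SF replicate 4 it was 0.76 (FDR p-value 0.00387) and without BF replicate 4 it was 0.58 (FDR p-value 0.0297). It was also past the threshold with DESeq2 (0.44, FDR p-value 0.0392), upper-quartile scaling (0.57, FDR p-value 0.0346), exon reads (0.65, FDR p-value 0.0200) and junction reads (0.71, FDR p-value 0.0229). On day 10 PIWI2 had 137, 163 and 172 CPM in BF against 84.3, 79.1 and 101 CPM in SF, with no overlap. This was the largest day 10 difference of the family, at 0.84 ± 0.23 on the log2 scale (FDR p-value 0.0191). The call was lost without SF replicate 1 (FDR p-value 0.0651), SF replicate 2 (0.0737), BF replicate 2 (0.0716) or BF replicate 4 (0.0553), with log2 fold changes from 0.77 to 0.81. On day 20 PIWI2 averaged 105 ± 6.73 CPM in BF and 82.3 ± 21.7 CPM in SF (SD, n = 3 each), a log2 fold change of 0.35 (FDR p-value 0.295).

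PIWI7 was close to the limit of detection. In BF day 3 libraries it had 5, 4, 14 and 7 read pairs, against 28, 18 and 19 in SF day 3, and no BF library reached an SF library. The log2 fold change was -1.39 ± 0.37 (SE, FDR p-value 0.00339). Of the read pairs summed over each group, 19 of 30 were unique in BF day 3 and 50 of 65 in SF day 3, and the unique reads alone gave -1.68 (FDR p-value 0.000863). Because PIWI7 overlaps a gene on the other strand and no source used here gives the strand setting of the counting, the source of these reads is uncertain. On day 10 PIWI7 had 36, 22 and 22 read pairs in BF against 21, 35 and 15 in SF (log2 fold change 0.20, FDR p-value 0.743). On day 20 it had 13, 20 and 17 in BF against 28, 22 and 32 in SF (log2 fold change -0.73, FDR p-value 0.175). The day 10 effect differed from that of day 3 by 1.59 ± 0.52 (FDR p-value 0.0240). That call was lost without SF day 3 replicate 1 (FDR p-value 0.0617), BF day 10 replicate 1 (0.0614) or SF day 10 replicate 4 (0.0529).

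The kind of read counted shifted the day 3 values of the family. Summed over all 19 libraries, intron reads made up between 0.167% (PIWI3) and 8.42% (PIWI5) of the gene reads of a member, while the libraries of BF day 3 held more intron reads overall. With exon reads in place of total gene reads, the day 3 log2 fold change of every member was higher, by 0.11 to 0.19. On day 10 the shift was 0.0026 to 0.044 and on day 20 it was 0.012 to 0.046. Over all tested genes the day 3 median was 0.018 with gene reads (13904 genes) and 0.027 with exon reads (13297 genes). Each kind of read was scaled by its own library totals, and the cause of the shift was not tested. PIWI5 (1.48), PIWI3 (0.78) and PIWI4 (-0.36) kept their direction and their call on day 3 with exon reads, as did PIWI7 (-1.25, FDR p-value 0.00965). Junction reads gave 1.44 for PIWI5, 0.84 for PIWI3 and -0.33 for PIWI4, all called, and left too few reads to test PIWI7.

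**Figure D3:**
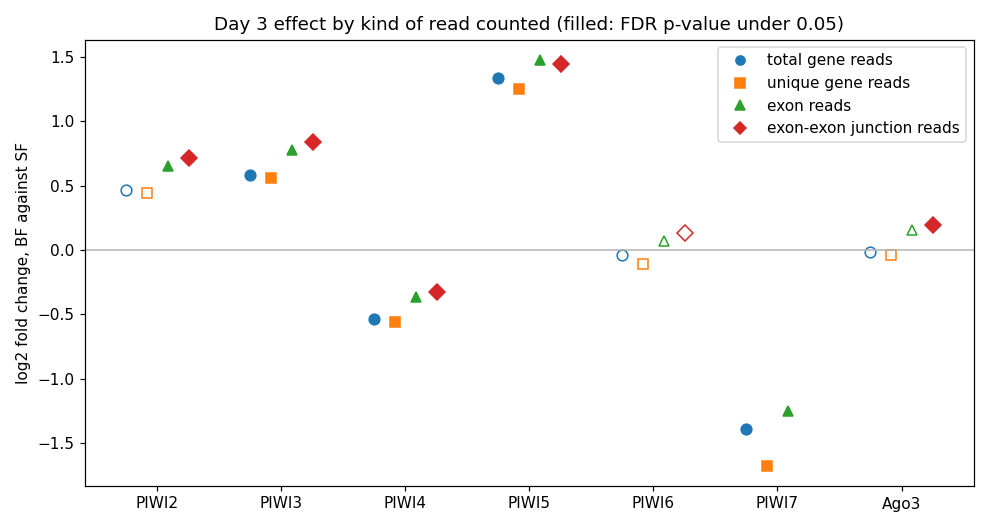
Log2 fold change of BF against SF on day 3 (vertical axis) for each member, from 4 kinds of read counts (colors and shapes). Filled symbols passed an FDR p-value of 0.05. PIWI3, PIWI4 and PIWI5 were called with each kind, PIWI2 with exon reads (0.65) and junction reads (0.71), and PIWI7 has no junction value.

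Introns of the members themselves were also better covered in BF day 3. The intron share of PIWI4 was 2.31% ± 0.345 (SD, n = 4) in BF day 3 and 0.779% ± 0.0258 (SD, n = 3) in SF day 3. That of Ago3 was 3.63% ± 0.804 in BF and 1.58% ± 0.317 in SF, and that of PIWI6 13.2% ± 1.80 in BF and 7.35% ± 2.40 in SF. Most intron reads of PIWI6 were not unique, with 588 of 1843 unique in BF day 3 replicate 1 and 206 of 731 in SF day 3 replicate 1. Its intron share therefore cannot be given to PIWI6 alone, because of the overlap with PIWI5. For PIWI2, PIWI3, PIWI4, PIWI6 and Ago3 no BF library overlapped an SF library. The intron share over all genes was apart in the same way. It was 9.11% to 13.2% in BF day 3 and 4.36% to 5.71% in SF day 3, so the separation is not particular to these members. The smallest p that an exact two-sided permutation test of 4 against 3 libraries allows is 0.0286, which PIWI3, PIWI4 and PIWI6 reached. After adjustment over the 7 members no share passed 0.05 (lowest adjusted p 0.0667 in the exact permutation test). With only these members at the smallest p, the adjustment allows no lower value, so the adjusted test cannot decide here.

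As a share of the exon reads per kb summed over the 7 members, the makeup of the family differed between BF and SF on day 3. PIWI4 made up 25.6% ± 1.04 in BF day 3 (SD, n = 4) and 38.0% ± 1.67 in SF day 3 (SD, n = 3). PIWI3 took 26.8% ± 1.31 in BF and 18.2% ± 0.633 in SF, and PIWI5 4.81% ± 0.536 in BF and 2.00% ± 0.257 in SF. Ago3 took 17.9% ± 0.844 in BF and 18.8% ± 2.21 in SF, where the groups overlapped. The groups did not overlap for PIWI3, PIWI4, PIWI5 and PIWI7. Each of these had the smallest p that the exact permutation test allows (0.0286, two-sided), and their adjusted p of 0.050 over the 7 members did not fall under 0.05. With only these members at the smallest p, the adjustment allows no lower value, so the adjusted test cannot decide here. The summed level was 513 ± 60.8 RPKM in BF day 3 (SD, n = 4) and 506 ± 17.9 RPKM in SF day 3 (SD, n = 3), where the groups overlapped. It was 486 ± 11.9 RPKM in BF and 462 ± 14.4 RPKM in SF on day 10, with a slight overlap. On day 20 it was 404 ± 21.4 RPKM in BF and 445 ± 13.1 RPKM in SF (SD, n = 3 each), where each BF library (383 to 426 RPKM) lay below each SF library (434 to 460 RPKM). On day 10 PIWI4 made up 34.0% ± 2.31 in BF and 43.0% ± 3.23 in SF, and on day 20 37.8% ± 3.25 in BF and 43.8% ± 2.41 in SF (SD, n = 3 each). On these days an exact test of 3 against 3 libraries cannot go below 0.10.

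**Figure D4:**
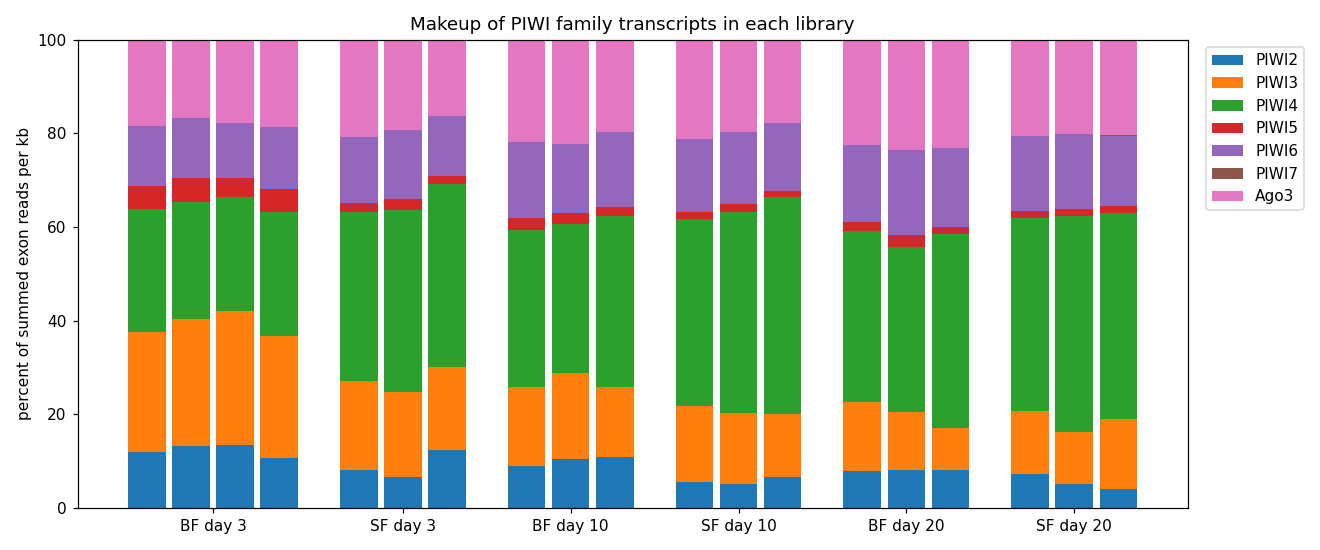
Makeup of the PIWI family in each library, as percent of the exon reads per kb summed over the 7 members (vertical axis, bars by group in the order of the replicate numbers). PIWI7 is too small to see. PIWI3 takes 25.6% to 28.5% in the 4 BF day 3 libraries and 17.7% to 18.9% in the 3 SF day 3 libraries.

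The comparison between days asks how the genes changed with time within a diet. In SF ovaries no member was called on day 10 against day 3, where 0.0719% of all genes were called. Without adjustment 3 members had p under 0.05, and DESeq2 called PIWI2 (-0.78, FDR p-value 0.0157) and PIWI5 (-0.45, FDR p-value 0.0409) among 319 genes, where edgeR called 10. Junction reads called PIWI5 as well (-0.70, FDR p-value 0.0449). On day 20 against day 3, 3 of 7 members were DEGs in SF and 17.6% of all genes were called. PIWI2 averaged 82.3 ± 21.7 CPM in SF day 20 and 151 ± 53.8 CPM in SF day 3 (log2 fold change -0.87 ± 0.23, FDR p-value 0.0176). PIWI3 fell to 195 ± 31.9 CPM in SF day 20, against 298 ± 3.89 CPM in SF day 3 (log2 fold change -0.61 ± 0.16, FDR p-value 0.0174). PIWI5 fell to 30.6 ± 2.02 CPM in SF day 20, against 45.6 ± 5.57 CPM in SF day 3 (log2 fold change -0.58 ± 0.13, FDR p-value 0.00883, SD over n = 3 each). The PIWI2 call was lost without SF day 3 replicate 4 (-0.55, FDR p-value 0.0979), SF day 20 replicate 2 (0.0647) or SF day 20 replicate 4 (0.0661), and with junction reads (0.0550). The PIWI3 call was lost without SF day 20 replicate 1 (0.0607) or replicate 2 (0.0821). PIWI4, PIWI6 and Ago3 had log2 fold changes between -0.018 and 0.060 in the same comparison, none of which passed the test.

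In BF ovaries 5 of 7 members were called on day 10 against day 3, where 61% of all genes were. PIWI5 fell to 48.9 ± 4.52 CPM in BF day 10 (SD, n = 3), against 115 ± 9.38 CPM in BF day 3 (SD, n = 4), with a log2 fold change of -1.24 ± 0.13 (FDR p-value 2.89e-07). PIWI3 fell as well (log2 fold change -0.79, FDR p-value 0.000275). PIWI7 rose by 1.68 (FDR p-value 0.000716), PIWI4 by 0.29 (FDR p-value 0.00784) and PIWI6 by 0.13 (FDR p-value 0.0376). The rises of PIWI4 and PIWI6 were not called with exon reads (0.13 and 0.031) or junction reads (0.069 and -0.017). PIWI2 was called lower with both (-0.58 with exon reads, FDR p-value 0.0362, and -0.61 with junction reads, FDR p-value 0.0469). PIWI6 was also lost without BF day 3 replicate 4 (FDR p-value 0.141) or BF day 10 replicate 4 (0.0612) and with upper-quartile scaling (0.254), and Ago3 was called at 0.20 without BF day 3 replicate 3 (FDR p-value 0.0192). On day 20 against day 3, PIWI5 fell by 1.71 (FDR p-value 4.33e-09), PIWI3 by 1.53 (FDR p-value 2.31e-07) and PIWI2 by 0.99 (FDR p-value 0.000831), and PIWI7 rose by 1.07 (FDR p-value 0.0203). These were 4 of 7 members, against 66.8% of all genes. PIWI7 lost its call without BF day 3 replicate 1 (FDR p-value 0.0557) or BF day 20 replicate 2 (0.0905). PIWI4 (0.19, FDR p-value 0.0684) was called with DESeq2 (0.23, FDR p-value 0.0280), RLE scaling (0.0355), no filter (0.0433) and unique gene reads (0.0380), and without BF day 20 replicate 2 (0.31, FDR p-value 0.00555) or BF day 3 replicate 3 (0.26, FDR p-value 0.0227). Ago3 (AAEL007823) was called lower with exon reads (-0.18, FDR p-value 0.0198) and junction reads (-0.21, FDR p-value 0.00634), and PIWI6 with junction reads (-0.18, FDR p-value 0.0149). The comparisons with day 3 share the day 3 libraries and are not independent of each other.

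No member differed between the blood-meal effects of day 20 and day 10, and edgeR called 0 of all 13904 genes there. Without adjustment 1074 genes had p under 0.05, PIWI3 among them (log2 difference -0.52, unadjusted p = 0.0354, edgeR quasi-likelihood test across all genes), and DESeq2 called 11 genes and no member.

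Of the other Argonautes, AGO2 binds small interfering RNAs and AGO1b belongs to the microRNA branch. AGO2 averaged 119 ± 12.7 CPM in BF day 3 (SD, n = 4) and 85.5 ± 9.41 CPM in SF day 3 (SD, n = 3), with a log2 fold change of 0.48 ± 0.091 (FDR p-value 0.000155). On the later days its direction was the other way, and the effect differed from that of day 3 on day 10 (log2 difference -0.93, FDR p-value 5.70e-05) and on day 20 (-0.82, FDR p-value 0.000120). It had 65.6, 67.2 and 73.4 CPM in BF day 10 against 88.5, 94.2 and 98.6 CPM in SF day 10 (log2 fold change -0.45, FDR p-value 0.00458), and on day 20 the log2 fold change was -0.33 (FDR p-value 0.0204). The day 20 call of AGO2 was lost without SF replicate 2 (FDR p-value 0.0790), SF replicate 4 (0.0656) or BF replicate 2 (0.128), and with junction reads (0.0730). AGO1b gave -0.0097 on day 3 (FDR p-value 0.885), -0.085 on day 10 (FDR p-value 0.317) and -0.16 on day 20 (FDR p-value 0.0585).

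A list of 30 further genes of the piRNA pathway was matched by symbol, and 2 of them were found, mael and osk. Rows named by gene ID were not searched, so the unmatched genes may still be among them. Maelstrom acts in piRNA silencing in the fruit fly. In BF against SF, mael was not called on any day (log2 fold changes -0.089, -0.075 and -0.13 on days 3, 10 and 20, with the lowest FDR p-value 0.219). Between days, mael was called lower in BF day 20 against BF day 3 (log2 fold change -0.22, FDR p-value 0.00686), where 66.8% of all genes were called. Oskar assembles the germ plasm in the fruit fly. It fell on day 3, as given above, and was 0.046 on day 10 (FDR p-value 0.712) and 0.032 on day 20 (FDR p-value 0.80). With junction reads its day 3 value was -0.15 (FDR p-value 0.0848).

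The likeness of patterns was measured as the root-mean-square difference of log2 CPM, each gene centred on its mean, over the 19 libraries and among 10676 genes with a mean of at least 1 CPM. Among the members, PIWI6 and Ago3 were closest to each other (0.081). Both varied little, with spreads around the mean of 0.066 and 0.091, and the measure is small for any pair of such flat genes. Among PIWI2, PIWI3, PIWI5 and PIWI7, which varied most, PIWI3 and PIWI5 were closest (0.37). PIWI5 and PIWI7 were farthest apart (1.29), and PIWI5 and PIWI6, which share a locus, differed by 0.72. The neighbours PIWI2 and PIWI3 differed by 0.41. The genes closest to PIWI5 were AAEL008227 (0.15) and AAEL023187 (0.15), where its own spread around its mean was 0.71. For PIWI4, with a spread of 0.26, they were AAEL007252 (0.061) and AAEL002557 (0.072). For PIWI3, with a spread of 0.54, they were AAEL021783 (0.18) and AAEL017512 (0.19), and for PIWI2, with 0.55, AAEL005073 (0.24) and AAEL006211 (0.25). PIWI6, with a spread of 0.066, was closest to AAEL019724 (0.049) and AAEL009706 (0.051), and Ago3, with 0.091, to AAEL019656 (0.055) and AAEL006946 (0.060). PIWI7, with 0.68, was closest to AAEL028044 (0.36) and AAEL007543 (0.36). The 19 libraries fall into 6 groups that all these genes share, so these values describe the libraries and are not tests.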

How the data were processed

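Ribosomal RNA was depleted from DNase-treated total RNA of pooled ovaries, stranded libraries were sequenced as pairs, and the authors mapped the reads to AaegL5.0 in the CLC genomics workbench. The deposited counts are whole read pairs per gene (total and unique gene, exon, exon-exon and intron reads), not normalized, and the deposited RPKM values come from exon reads in the authors' CLC run. No source used here states the strand setting, or the annotation release used for counting. Gene reads were fitted over 6 groups in a single model with edgeR 4.0.16 (R 4.3.3, filterByExpr minimum count 10 and minimum total count 15, TMM, robust quasi-likelihood, 13 residual degrees of freedom, common biological coefficient of variation 0.16). FDR p-values (Benjamini-Hochberg) run over 13904 genes. CPM follow TMM scaling, and log2 CPM used a prior count of 2. Intron shares and shares of the family were tested by exact two-sided permutation. Alternatives were DESeq2 1.42.0, other scalings, no filter, days fitted separately, a replicate block, other read kinds, an FDR of 0.01 and leaving out each library. Counting junction reads was chosen after seeing the data. The fit was also run on simulated counts in which few genes changed. Many genes were called on day 3, and that run does not test the fit in such a setting. Python 3.11.15 (pandas 2.3.3, matplotlib 3.10.9) made the tables and figures. Libraries of a group differed by more than sampling noise (lowest chi-square divided by its degrees of freedom 15.2), and none was counted as a duplicate.

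The members, lists and tests were chosen with earlier results of these data known. All members, AGO1b, AGO2, called genes of the pathway list and the 2 genes most like each member are named. Piwi1 and sequences were not used here. Members were taken by the PIWI symbol in the files, or by ID for Ago3, and symbols were paired with IDs by the order of the list.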

Additional observations from a re-analysis of the deposited data

Results flagged for a closer look

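The blood-meal effect of 3 members differed between days in the interaction test of the edgeR fit, 2 of 7 in day 10 against day 3 and 2 of 7 in day 20 against day 3. Of all genes, 36.8% and 38.8% were called in these tests, so that 2 of 7 members was near the background. For PIWI5 the day 10 effect was lower than the day 3 effect by a log2 difference of -0.79 (FDR p-value 0.00282), and the day 20 effect by -1.14 (FDR p-value 0.000129). For PIWI3 the day 20 effect was lower than that of day 3 by -0.92 (FDR p-value 0.00347). For PIWI7 the day 10 effect was above that of day 3 by 1.59 (FDR p-value 0.0240), with 4 to 36 read pairs per library.

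In the 4 BF day 3 libraries, 2 values lay far from the other 3 of their group, of 21 sets of values examined, where chance flags about 1 in 20. PIWI6 had 233 CPM in replicate 4, against 257 to 258 CPM in the other 3 libraries. The intron share of PIWI7 was 14.3% in replicate 4, which rests on 1 of 7 read pairs, and 0 in the others.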

How the results depend on the processing

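Of the members' log2 fold changes under an alternative, 1078 of 1222 kept their direction and their side of the threshold, 28 lost a call, 26 gained a call and 90 changed sign, and the cause of these changes was not tested. Of the sign changes, 87 had no call with or without the alternative, and 3 had one, all with junction reads: Ago3 on day 3, and PIWI6 in BF day 10 and in BF day 20 against BF day 3. Junction reads called 3 members in BF day 10 against BF day 3, 1 in SF day 10 against SF day 3 and 1 in the day 10 against day 3 interaction, in place of 5, 0 and 2, and PIWI7 could not be tested with them. In the first of these PIWI4 and PIWI6 were lost and PIWI2 gained, and the change in the interaction is PIWI7 alone. DESeq2 called 2 members in SF day 10 against SF day 3, and 319 of all 13904 genes, where edgeR called 10. At an FDR of 0.01, 1 member was called in BF against SF on day 10, in SF day 20 against SF day 3 and in the day 10 against day 3 interaction, in place of 3, 3 and 2. Upper-quartile scaling took the median of all genes on day 3 to 0.12, where it was 0.018.

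The log2 fold changes whose sign changed are given with the value of the edgeR fit in parentheses. PIWI6 in BF against SF on day 3 (-0.036) gave 0.064 with upper-quartile scaling, 0.0088 with library size alone, 0.069 with exon reads, 0.13 with junction reads and -0.10 to 0.0024 with a library left out. Ago3 in BF against SF on day 3 (-0.015) gave 0.085 with upper-quartile scaling, 0.030 with library size alone, 0.15 with exon reads, 0.20 with junction reads and -0.12 to 0.022 with a library left out. PIWI6 in BF against SF on day 20 (-0.034) gave 0.046 with upper-quartile scaling, 0.044 with library size alone and 0.013 with junction reads. Ago3 in BF against SF on day 20 (-0.023) gave 0.056 with upper-quartile scaling, 0.054 with library size alone, 0.014 with exon reads, 0.056 with junction reads and -0.042 to 0.027 with a library left out. PIWI6 in SF day 10 against SF day 3 (-0.0023) gave 0.0062 with unique gene reads and -0.035 to 0.052 with a library left out. PIWI7 in SF day 10 against SF day 3 (0.095) gave -0.043 with unique gene reads and -0.24 to 0.31 with a library left out. PIWI4 in SF day 10 against SF day 3 (0.067) gave -0.00052 to 0.14 with a library left out. Ago3 in SF day 10 against SF day 3 (-0.042) gave -0.11 to 0.019 with a library left out. PIWI4 in SF day 20 against SF day 3 (0.060) gave -0.031 with upper-quartile scaling, -0.0069 with junction reads and -0.011 to 0.11 with a library left out. PIWI6 in SF day 20 against SF day 3 (9.28e-05) gave -0.091 with upper-quartile scaling, -0.047 with library size alone, -0.0080 with exon reads, -0.063 with junction reads and -0.036 to 0.052 with a library left out. Ago3 in SF day 20 against SF day 3 (-0.018) gave -0.091 to 0.019 with a library left out. Ago3 in BF day 10 against BF day 3 (0.12) gave -0.041 with exon reads and -0.091 with junction reads. PIWI6 in BF day 10 against BF day 3 (0.13) gave -0.017 with junction reads. Ago3 in BF day 20 against BF day 3 (-0.025) gave 0.013 with DESeq2, 0.013 with RLE scaling, 0.0032 with no filter, 0.028 with the replicate block, 0.0011 with unique gene reads and -0.062 to 0.059 with a library left out. PIWI6 in BF day 20 against BF day 3 (0.0025) gave -0.11 with upper-quartile scaling, -0.012 with library size alone, -0.099 with exon reads, -0.18 with junction reads and -0.036 to 0.047 with a library left out. PIWI4 in BF day 20 against BF day 3 (0.19) gave -0.029 with junction reads. PIWI6 in the day 10 against day 3 interaction (0.13) gave -0.0059 with junction reads. Ago3 in the day 10 against day 3 interaction (0.16) gave -0.0017 with junction reads. Ago3 in the day 20 against day 3 interaction (-0.0072) gave 0.018 with DESeq2, 0.018 with RLE scaling, 0.024 with library size alone, 0.021 with no filter, 0.042 with the replicate block, 0.021 with unique gene reads and -0.044 to 0.11 with a library left out. PIWI6 in the day 20 against day 3 interaction (0.0024) gave -0.018 with upper-quartile scaling, -0.091 with exon reads, -0.12 with junction reads and -0.035 to 0.077 with a library left out. PIWI4 in the day 20 against day 3 interaction (0.13) gave -0.0068 with exon reads and -0.022 with junction reads. PIWI2 in the day 20 against day 3 interaction (-0.12) gave -0.40 to 0.15 with a library left out. PIWI4 in the day 20 against day 10 interaction (-0.098) gave -0.17 to 0.0079 with a library left out.

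When a library of the groups compared was left out, the count of members called in BF against SF ran from 4 to 5 on day 3, from 1 to 2 on day 10 and from 1 to 2 on day 20. It ran from 1 to 3 in SF day 20 against SF day 3, from 4 to 6 in BF day 10 against BF day 3, from 3 to 5 in BF day 20 against BF day 3 and from 1 to 2 in the day 10 against day 3 interaction. The study gives the replicate numbers as biological replicates, so they are part of its design. The edgeR fit left the replicate number out, and it was added only as an alternative. Same-numbered BF and SF libraries deviated from their group means with r from 9e-04 to 0.168. On days 10 and 20 every library correlated best with its own number, and on day 3 not every library did. With so few libraries per group, these r cannot decide how much same-numbered samples share. Replicate 3 had only a BF day 3 library, which the study added from another replicate, and no SF library. Under a block on the replicate number, that library has a term of its own and adds nothing to the comparisons. With the replicate number as a block (replicate block), 4, 3 and 1 members were called in BF against SF on days 3, 10 and 20, and PIWI5 kept its call on days 3 and 10. Of all genes, 9159, 3408 and 3679 were then called, in place of 9029, 2681 and 2976. The block added Ago3 (0.17, FDR p-value 0.0290) in BF day 10 against BF day 3 and PIWI4 (0.22, FDR p-value 0.0316) in BF day 20 against BF day 3, and changed no other call. The share tests with a library left out cannot pass the threshold at this size.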
